A study of Homo sapiens with 10 samples.

Results

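Replication-dependent histone genes encode the bulk histones that package newly copied DNA: the linker histone H1 and the core histones H2A, H2B, H3 and H4. They lie in clusters, are transcribed mainly in S phase, and most of their mRNAs end in a short conserved stem-loop bound by the protein SLBP in place of a poly(A) tail. A subset of these genes is also known to yield polyadenylated mRNA, a form described in differentiated and slowly dividing cells. In these data 69 genes carried a name of the family (H1-1 to H1-6, or an H2AC, H2BC, H3C or H4C number), and 26 of them had 10 or more reads in at least 2 of 10 libraries and are described here as members.

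The libraries came from H441, an established human lung adenocarcinoma line, and the study asked what loss or gain of TET1, an enzyme that oxidises methylated cytosine, does to its transcriptome. Per the labels, 3 libraries came from cells whose TET1 had been removed from the wild-type line by CRISPR-Cas9 (KO), and the labels do not say whether these were 1 clone. Another 2 came from cells transiently transfected with a full-length human TET1 plasmid (OE), 2 were labelled untreated wild type but titled Lipo, a word the labels leave unexplained, and 3 were untreated wild type (WT). KO was set against WT, and OE against Lipo, with Lipo also set against WT. The labels do not say that replicates were separate cultures, so p-values measure only the spread between these libraries, which may be technical.

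Library totals ran between 20994462 and 25981097 reads. TET1 itself had 17883 and 20805 reads in OE against 0 and 1 in Lipo, whereas KO held 4, 0 and 8 reads against 2, 7 and 0 in WT, so that transcript level does not check the KO label. WT 1 stood apart from the other WT libraries, with a chi-square of counts per degree of freedom of 42.7 and 46.5 against 6.37 between WT 2 and WT 3, and the KO libraries differed among themselves by 39.6 to 65.0. No pair looked like 1 library under 2 names. All 7 epithelial markers were expressed, and so were surfactant genes of the lung lineage.

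The member class was uneven, with 11 H2B, 6 H2A, 3 H1, 3 H3 and 3 H4 genes. By cluster, 21 members lay at 6p22, 3 at 1q21 and 1 at 12p12, and H3C3 had no position in GENCODE 29. Among the other family genes 18 had no read in any library, and 25 had reads but stayed below the rule. A count of 0 over all libraries allows up to 0.0130 CPM (reads per 1000000 reads), for counting error only. At the edge of the rule, H2BC13 with 67 reads in all, H2AC20 with 60 and H1-5 with 53 had 10 reads in exactly 2 libraries. Just outside it, H4C12 with 52 reads, H2AC17 with 50, H3C11 with 23 and H2AC4 with 20 had 10 reads in 1 library.

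The stem-loop that ends a replication-dependent mRNA was found in an annotated transcript of 18 of the 26 members, in 5 distinct versions. The search reached annotated bases only, so a member without a match was not shown to lack the stem-loop. The models of H2BC12 (381 bases), H2AC20 (390), H2AC15 (393) and H1-2 (642) were short, and H3C3 was not in GENCODE 29. One gene per version is shown, as the strand of the mRNA in GRCh38 with GENCODE 29 transcripts, with the 16-base stem-loop in capitals and 5 flanking bases on each side in lower case. H2AC6 lies at chr6:26124664-26124689 (plus strand), H2BC5 at chr6:26158582-26158607 (plus), H2AC11 at chr6:27133510-27133535 (plus), H3C6 at chr6:26225591-26225616 (plus) and H4C8 at chr6:26285126-26285151 (minus).
H2AC6: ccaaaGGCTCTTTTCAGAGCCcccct
H2BC5: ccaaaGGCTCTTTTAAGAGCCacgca
H2AC11: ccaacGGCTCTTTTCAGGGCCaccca
H3C6: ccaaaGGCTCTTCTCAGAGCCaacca
H4C8: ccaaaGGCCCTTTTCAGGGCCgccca
The version of H2AC6 was the most frequent among members, and the H4 genes carried their own. An mRNA processed at the stem-loop ends a few bases past it. However, the annotation ran on for more than 100 bases after the stem-loop in 14 of the 18 members. Among the other family genes with a stem-loop, it ran on as far in 9 of 11. The next lengths are those of members. The annotation ran on for 1128 bases in H2AC6, 1729 in H2BC21 and 1655 in H4C8. Gene-level counts do not separate reads of the short, stem-loop-ended mRNA from reads of the longer transcript.

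The upstream sequences of the members that take most of the reads are shown because these genes moved together in OE. They come from RefSeq on GRCh38.p14 and stop before the RefSeq transcription start. Capitals mark 3 motifs searched on both strands: the TATA box (TATAAA), the CCAAT box (CCAAT) and the octamer (ATTTGCAT). TATAAA can overlap its own reverse complement, as it does once upstream of H2BC12. The stretch between H2BC4 and H2AC6 is chr6:26123927-26124171 and that between H2BC21 and H2AC20 is chr1:149886683-149886917, both on the plus strand, which is the strand of the H2A gene. The stretch of H2BC12 is chr6:27146859-27147108 (minus), that of H2BC5 is chr6:26157871-26158120 (plus) and that of H1-2 is chr6:26056471-26056720 (minus), each of 250 bases.
H2BC4-H2AC6: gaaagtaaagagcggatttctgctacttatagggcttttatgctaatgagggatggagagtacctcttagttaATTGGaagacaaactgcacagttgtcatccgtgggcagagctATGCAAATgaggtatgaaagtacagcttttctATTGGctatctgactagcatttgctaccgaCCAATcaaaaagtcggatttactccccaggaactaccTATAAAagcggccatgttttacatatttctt
H2BC21-H2AC20: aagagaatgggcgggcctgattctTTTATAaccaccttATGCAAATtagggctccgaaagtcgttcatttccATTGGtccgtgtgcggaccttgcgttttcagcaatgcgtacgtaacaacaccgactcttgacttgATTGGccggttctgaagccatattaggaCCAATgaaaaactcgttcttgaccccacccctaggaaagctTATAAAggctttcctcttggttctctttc
H2BC12: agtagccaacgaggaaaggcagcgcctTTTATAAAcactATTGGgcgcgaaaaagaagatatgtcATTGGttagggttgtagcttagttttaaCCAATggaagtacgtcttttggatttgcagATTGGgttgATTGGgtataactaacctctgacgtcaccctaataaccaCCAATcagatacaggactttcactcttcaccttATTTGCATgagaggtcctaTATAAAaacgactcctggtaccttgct
H2BC5: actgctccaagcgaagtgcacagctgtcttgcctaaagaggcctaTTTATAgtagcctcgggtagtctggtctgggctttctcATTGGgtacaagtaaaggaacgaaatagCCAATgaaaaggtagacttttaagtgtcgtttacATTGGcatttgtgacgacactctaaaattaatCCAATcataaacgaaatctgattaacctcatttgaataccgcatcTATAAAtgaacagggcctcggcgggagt
H1-2: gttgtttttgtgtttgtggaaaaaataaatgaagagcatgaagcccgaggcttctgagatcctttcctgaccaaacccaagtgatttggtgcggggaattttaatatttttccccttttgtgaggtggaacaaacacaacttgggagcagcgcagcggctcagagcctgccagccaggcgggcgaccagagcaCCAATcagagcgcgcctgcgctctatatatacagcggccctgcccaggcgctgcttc
Over windows of 250 bases before and 50 after the start, the CCAAT box was present in 23 of 26 members (88.5%) against 35.7% of 27305 promoters, taking 1 window per symbol. The TATA box was present in 17 of 26 (65.4%) against 11.95% of all. The octamer was present in 12 of 26 (46.2%) against 1.80% of all. Across the family genes with a window, the octamer was found in 14 of 18 H2B genes and 11 of 16 H2A genes, but in 1 of 30 H1, H3 and H4 genes. The family genes below the rule resembled the members in these motifs: 25 of 38 had the TATA box, 31 the CCAAT box and 14 the octamer. A match is a match of letters only, and paired genes share part of their window.

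Reads were concentrated in few genes. The family had 34490 reads in all, of 231450280 reads over the libraries, and the members took 34013 of them (98.6%). H2BC12 (7412 reads), H2BC5 (6145), H2AC6 (6045), H2BC21 (4493) and H1-2 (4058) together held 81.6% of the family's reads. Counting H2BC4 (1341) and H2BC11 (574) as well, the 7 members known from other work to have polyadenylated forms held 30068 reads, or 87.2%. By class, H2B genes took 61.2% of family reads, H2A 19.9%, H1 12.8%, H3 3.99% and H4 2.14%, although a nucleosome holds the core histones in equal number. The leading H3 member was H3C10 with 934 reads, and the leading H4 member was H4C8 with 349.

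**Figure D1:**
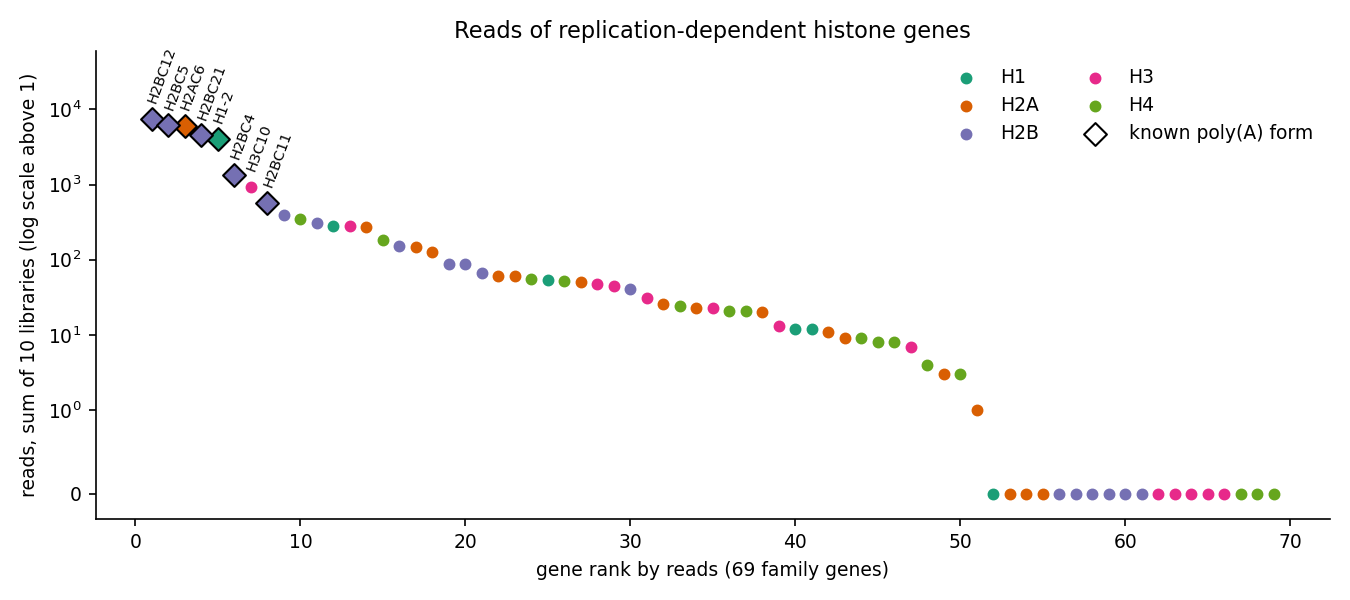
Reads of each of the 69 family genes summed over 10 libraries (vertical axis, logarithmic above 1), ordered by rank (horizontal axis) and coloured by histone class. Diamonds mark the 7 genes with known poly(A) forms, which fill the first 6 places and the eighth, and 18 genes lie at 0.

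Per kilobase of exon annotated in GENCODE 29, the WT level was 71.1 CPM for H2BC12, 27.8 for H2BC5, 18.3 for H1-2, 14.3 for H2AC6, 6.60 for H2BC21, 5.36 for H2BC4 and 3.27 for H3C10. The H2BC12 model there is the coding sequence alone (381 bases), whereas that of H2BC21 runs to 2194 bases. The release used for counting is not given in the sources used here, so these lengths may not be those counted. Near-identical copies add doubt, counted as 50-base words that also occur in another gene with a histone name, in or outside the family. Such words made up 74.1% of those of H2BC12, 62.3% of H2AC13, 30.5% of H2AC20 and 20.3% of H2BC18. The share was 8.11% for H2BC21, 5.36% for H2BC5, 0.421% for H2AC6 and 0.00% for H1-2. How reads with several matches, and the strand, were treated in counting is not given in the sources used here, so the values of H2BC12, H2AC13, H2AC20 and H2BC18, and of overlapping genes, are uncertain.

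Divergent neighbours were read very unequally. The annotation holds 11 pairs of an H2A and an H2B gene that face away from each other within 500 bases, of which 5 had both genes among the members, 2 had 1 and 4 had neither. H2BC12 had 7412 reads and its partner H2AC12 had 3. H2BC21 had 4493 reads and H2AC20 had 60. In the H2BC4 and H2AC6 pair the H2A gene led instead, with 6045 reads for H2AC6 against 1341 for H2BC4. The remaining pairs with both genes among the members were closer in reads. H2BC11 had 574 and H2AC11 271, H2BC8 had 307 and H2AC8 126, and H2BC13 had 67 and H2AC13 147. Reads take no account of exon length. Per kilobase of exon, the WT level was 2.85 CPM for H2BC11 and 0.453 CPM for H2AC11. By that measure they were further apart than H2AC6 (14.3 CPM) and H2BC4 (5.36 CPM).

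The labels name a stranded total RNA kit, and other RNAs without a poly(A) tail were looked up for comparison. Of 19 such RNAs listed, 10 had no read in any library. Among them were RN7SK (the 7SK RNA that restrains transcription elongation) and RPPH1 (the RNA of RNase P). RNU7-1, the small nuclear RNA of the U7 particle that processes histone pre-mRNA, was another. The long nuclear RNA MALAT1 had 186908 reads and RN7SL1, the RNA of the signal recognition particle, had 1531, while the other 7 had between 1 and 129.

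Summed histone mRNA was higher in OE than in Lipo. The 26 members together stood at 243 and 241 CPM in OE, against 116 and 120 CPM in Lipo, a ratio of means of 2.05 ± 0.0549 (SD propagated from the libraries). KO libraries stood at 131, 125 and 147 CPM, against 136, 112 and 122 CPM in WT, a ratio of 1.09 ± 0.140. Lipo over WT gave a ratio of 0.958 ± 0.0952. The OE libraries therefore lay above the other 8 libraries without overlap, KO and WT overlapped, and no test was made of these sums. As a share of all reads the members took a mean of 0.0234% in OE against 0.0115% in Lipo. In bulk libraries, more cells carrying histone mRNA and more histone mRNA per cell cannot be told apart.

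Members with and without known polyadenylated forms showed a similar ratio. The 7 with such forms summed to 213 ± 1.21 CPM in OE and 103 ± 4.14 CPM in Lipo (SD, n = 2 each), a ratio of 2.06. The other 19 summed to 28.5 ± 0.592 CPM in OE and 14.5 ± 1.10 CPM in Lipo, a ratio of 1.964. The 43 family genes below the rule summed to 2.71 and 2.58 CPM in OE against 2.08 and 2.69 CPM in Lipo, where the groups overlapped. This contrast is partly set by the rule, which a gene can pass through OE itself. H3C3, H4C5, H2BC18 and H2BC13 would not have passed it without the OE libraries. By class, the OE over Lipo ratio of summed level was 2.39 for H1, 2.38 for H2A, 1.93 for H2B, 1.39 for H3 and 3.002 for H4. The H4 sum rested on 28 and 39 reads in the Lipo libraries. With WT in place of Lipo, the ratios were 2.65, 1.85, 1.94, 1.27 and 2.15 in the same order, so the class ranking depended on the control.

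**Figure D2:**
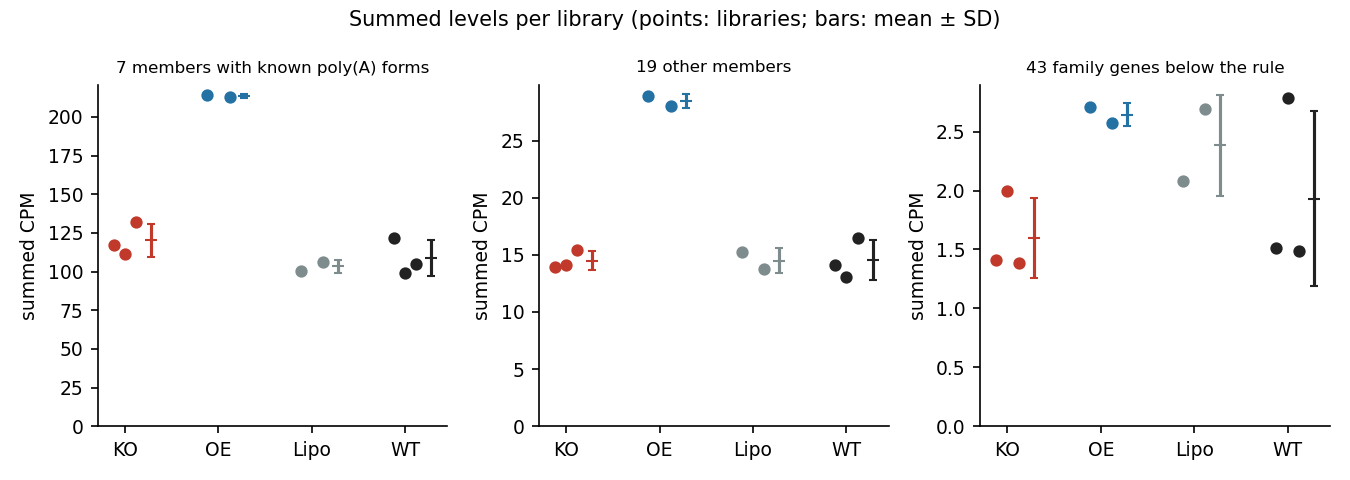
Summed CPM per library (points, with mean ± SD beside them) for the 7 members with known poly(A) forms, the 19 other members and the 43 family genes below the rule, in KO, OE, Lipo and WT. Both OE points lie above those of the other groups in both member panels, but not for the genes below the rule. That contrast is partly set by the rule, which a gene can pass through OE itself.

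Gene by gene, 8 members rose in OE relative to Lipo and none fell in edgeR's quasi-likelihood test at an adjusted p under 0.05, and over all 15832 genes tested 6.79% were called higher in that comparison. The fitted rises ranged from 1.76-fold for H2BC21 to 4.32-fold for H2BC8. The low-count filter let 25 members into the fit, H2AC20 being left out. Of those 25, 23 had a positive log2 change and the median was 1.08, beside a median of -0.01 over all genes tested. These figures describe the members that passed the filter, which a gene can pass through the group where it is high. Without overlap, OE lay above Lipo for 20 of the 25, as it did for 32.8% of all genes tested.

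Leaving out a library of the comparison changed the number called: 3 remained without OE 1, and 2 without OE 2, without Lipo 2 or without Lipo 3, with the lone library of the group assumed to vary like the other groups. H2AC6 was called in each of these 4 fits. With only OE and Lipo in the fit, 11 members were called higher, where 2944 of all 14532 genes tested were called higher.

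**Figure D3:**
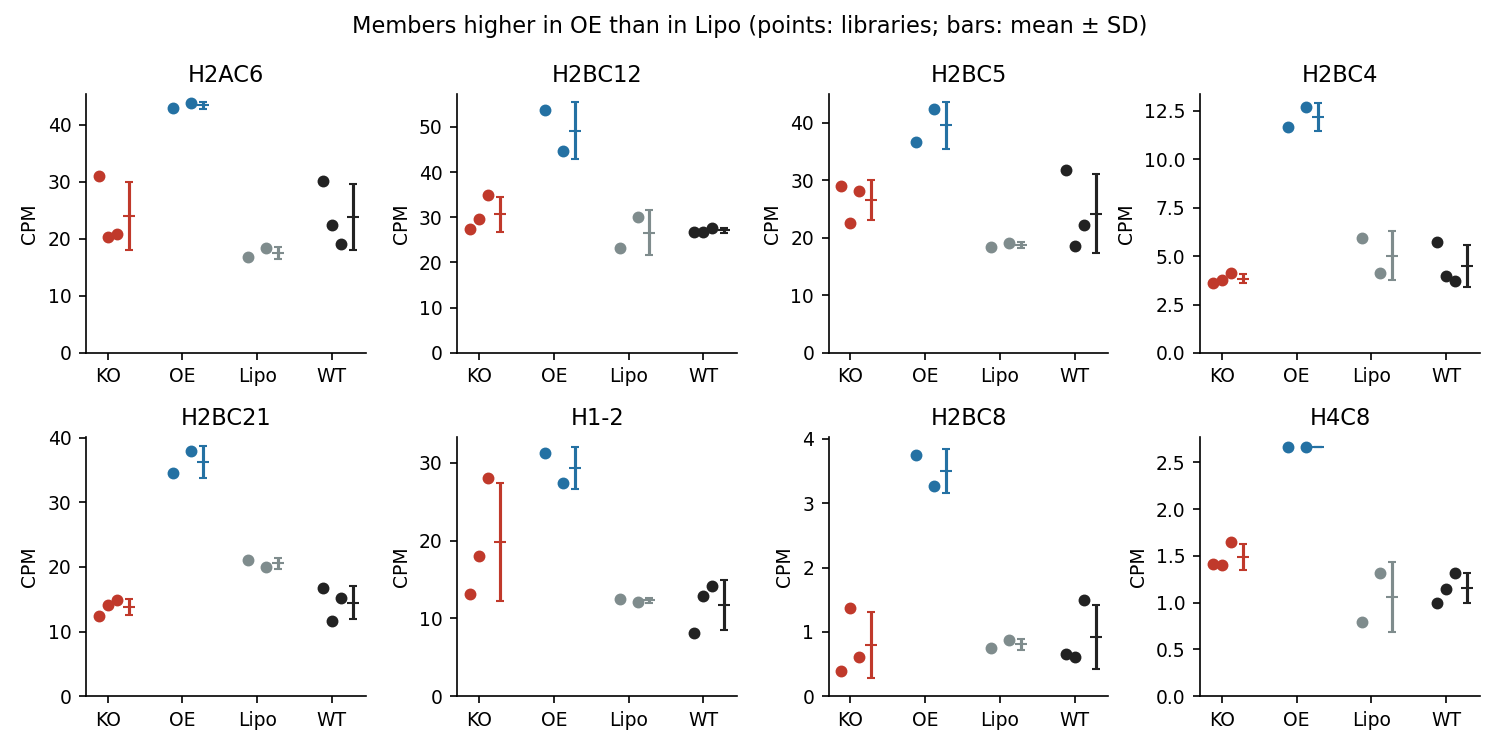
CPM in every library (points) with mean ± SD beside them for the 8 members called higher in OE than in Lipo, in KO, OE, Lipo and WT. In each panel both OE points lie above all Lipo and WT points; the KO points overlap those of WT except for H4C8.

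Among linker histones, which bind the DNA between nucleosomes, H1-2 (ENSG00000187837, chr6:26055787-26056428, minus strand) was the dominant member. Its level was 31.3 and 27.4 CPM in OE, against 12.5 and 12.1 CPM in Lipo. KO libraries had 13.2, 18.1 and 28.1 CPM, against 8.14, 12.9 and 14.1 CPM in WT. OE stood clear of Lipo and WT, while 1 KO library lay between the OE libraries and another fell within the WT range. It rose 2.38-fold in OE (log2 1.25, SE 0.30, adjusted p = 0.0151). H1-4 had 2.42 and 4.55 CPM in OE against 1.12 and 1.14 CPM in Lipo, a log2 difference of 1.62 that just missed the threshold (adjusted p = 0.0542). H1-4 had 0.662, 0.430 and 0.303 CPM in KO and 0.649, 0.878 and 0.394 CPM in WT, which overlapped. H1-5 was near the detection limit throughout, with a mean of 0.169 CPM in OE and 0.341 CPM in Lipo.

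Among H2A genes, which pair with H2B in the nucleosome, H2AC6 (ENSG00000180573, chr6:26124145-26139116, plus strand) carried most reads and had the smallest p of all members. OE libraries had 42.9 and 43.8 CPM, against 16.7 and 18.3 CPM in Lipo. The levels were 30.9, 20.3 and 20.8 CPM in KO and 30.2, 22.3 and 19.02 CPM in WT. KO and WT thus covered the same range, in each case with the library numbered 1 highest, and OE lay above all of them. The OE rise was 2.47-fold (log2 1.31, SE 0.23, adjusted p = 0.00213).

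H2AC11 had 1.04 and 2.57 CPM in OE against 1.29 and 0.912 CPM in Lipo, and 1.02, 0.820 and 1.08 CPM in KO against 0.909, 1.18 and 0.964 CPM in WT. Both pairs of groups overlapped. H2AC13 had 2.66 and 0.874 CPM in OE against 0.416 and 0.501 CPM in Lipo, with 0.353, 0.234 and 0.0866 CPM in KO against 0.390, 0.458 and 0.701 CPM in WT. Its 2 OE libraries differed among themselves by more than KO differed from WT, and its counts are uncertain because of near-identical copies. H2AC8 averaged 1.02 CPM in OE and 0.741 CPM in Lipo, H2AC15 0.278 and 0.148 CPM, and H2AC20 0.238 and 0.405 CPM in the same order, none of them called.

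H2B genes supplied 5 of the 8 rises. H2BC12 (ENSG00000197903, chr6:27146418-27146798, minus strand) had 53.7 and 44.7 CPM in OE, against 23.1 and 30.1 CPM in Lipo. KO libraries had 27.4, 29.6 and 34.8 CPM and WT libraries 26.8, 26.8 and 27.7 CPM. OE was above every other library, by 1.85-fold over Lipo in the fit (log2 0.89, SE 0.18, adjusted p = 0.00484).

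H2BC5 (ENSG00000158373, chr6:26158146-26171349, plus strand) had 36.6 and 42.5 CPM in OE, against 18.4 and 19.1 CPM in Lipo. Its levels were 29.03, 22.6 and 28.2 CPM in KO and 31.8, 18.6 and 22.3 CPM in WT, so the spread between WT libraries exceeded the gap between KO and WT. The rise in OE was 2.11-fold (log2 1.08, SE 0.22, adjusted p = 0.00614).

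H2BC4 (ENSG00000180596, chr6:26114873-26123926, minus strand), the divergent partner of H2AC6, had 11.7 and 12.7 CPM in OE against 5.91 and 4.15 CPM in Lipo. KO libraries had 3.62, 3.79 and 4.11 CPM, against 5.71, 3.97 and 3.73 CPM in WT. OE was the only group to stand apart, 2.42-fold above Lipo (log2 1.27, SE 0.27, adjusted p = 0.00678).

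H2BC21 (ENSG00000184678, chr1:149884459-149886652, minus strand), from the 1q21 cluster, had 34.5 and 38.0 CPM in OE against 21.1 and 19.96 CPM in Lipo. KO libraries had 12.4, 14.1 and 14.9 CPM, against 16.7, 11.6 and 15.1 CPM in WT. It was the member with the smallest p for Lipo over WT, and both Lipo libraries lay above all WT libraries. The OE rise over Lipo was 1.76-fold (log2 0.82, SE 0.19, adjusted p = 0.0125).

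H2BC8 (ENSG00000273802, chr6:26215159-26216692, minus strand) was lower in abundance, with 3.75 and 3.27 CPM in OE against 0.749 and 0.866 CPM in Lipo, and 0.397, 1.37 and 0.606 CPM in KO against 0.649, 0.611 and 1.49 CPM in WT. Its rise of 4.32-fold in OE had a wide error (log2 2.11, SE 0.58, adjusted p = 0.0295). The other 6 H2B members were not called in any comparison in the fit of all 10 libraries, and H2BC18 was called higher in OE when WT, alone or with Lipo, was the control. H2BC11 averaged 3.62 CPM in OE and 2.70 CPM in Lipo, H2BC15 2.36 and 1.64 CPM, H2BC18 1.24 and 0.293 CPM, H2BC6 0.817 and 0.625 CPM, H2BC7 0.532 and 0.567 CPM, and H2BC13 0.386 and 0.133 CPM in the same order.

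H3 and H4 form the tetramer at the centre of the nucleosome, and their genes had few reads here. H3C10 had 4.63 and 4.74 CPM in OE against 4.37 and 3.15 CPM in Lipo, and 3.18, 4.38 and 3.90 CPM in KO against 4.59, 3.09 and 4.47 CPM in WT. Its OE difference was small, at 0.32 on the log2 scale with a 95% interval of -0.28 to 0.91. H3C6 had 1.28 and 1.24 CPM in OE against 0.708 and 0.866 CPM in Lipo, and 2.29, 1.21 and 1.73 CPM in KO against 0.736, 1.03 and 0.920 CPM in WT. All KO libraries lay above WT for H3C6, but the difference did not pass the test (log2 0.95, SE 0.39, adjusted p = 0.126). H3C3 averaged 0.501 CPM in OE and 0.0852 CPM in Lipo and was not called.

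H4C8 (ENSG00000158406, chr6:26277609-26285638, minus strand) was the H4 member that rose. It had 2.66 and 2.67 CPM in OE, against 0.791 and 1.32 CPM in Lipo. KO libraries had 1.41, 1.41 and 1.65 CPM, all above the 0.996, 1.15 and 1.32 CPM of WT, without passing the test there. The OE rise was 2.52-fold, and its adjusted p of 0.0493 lay just under the threshold. H4C16, from 12p12, had 1.53 and 0.782 CPM in OE against 0.375 and 0.365 CPM in Lipo, and 0.750, 0.781 and 0.953 CPM in KO against 0.866, 0.764 and 0.876 CPM in WT. OE and Lipo did not overlap for H4C16, without passing the test, and KO and WT did overlap. H4C5 had 14 and 11 reads in OE against 0 and 2 in Lipo, too few for a fold.

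In the KO, no member was called in edgeR's test on all 10 libraries, while 12.6% of all genes tested were called in either direction. Of the 25 tested members 12 had a positive and 13 a negative log2 change, with a median of -0.01. An unadjusted p under 0.05 was reached by 5 of them, against 4204 of all 15832 genes tested. KO libraries lay above all WT libraries for H1-5, H3C6 and H4C8 and below all for H2AC13 and H2BC6. The share of all genes separated in this way is not given here, so this describes single members only. For H1-5 it rests on 6, 13 and 5 reads in KO against 2, 1 and 3 in WT. The smallest adjusted p, 0.0618, belonged to H1-2, at 0.75 on the log2 scale (SE 0.25). H1-2 passed the threshold with DESeq2 (adjusted p = 0.0255), the only call DESeq2 made among the members here, without KO 1, with no filter on low counts, against the 5 libraries labelled wild type, and when the libraries numbered 1 were left out of both groups (adjusted p = 0.0136). Across the alternatives its adjusted p ran between 0.000804, in edgeR's fit with the replicate number as a block, and 0.282. That blocked fit also called H2BC11 lower. H2BC11, at 0.706, 2.58 and 0.909 CPM in KO against 2.21, 2.71 and 3.199 CPM in WT, was low in KO 1 and KO 3 and not in KO 2, and passed the threshold without KO 2 (log2 -1.73, adjusted p = 0.00635).

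Between the wild-type groups, no member was called for Lipo over WT in edgeR's test on all 10 libraries or with DESeq2, where edgeR called 3.70% of all genes tested in either direction. The median log2 change of the members was -0.13, and 2 members had an unadjusted p under 0.05, against 2962 of all 15832 genes tested. The smallest adjusted p by edgeR was 0.136, for H2BC21 at 0.50 on the log2 scale (SE 0.18). H2BC21 was called in an edgeR fit of the Lipo and WT libraries numbered 2 and 3 alone, chosen after seeing the data (log2 0.62, adjusted p = 0.000457). Over all genes, that fit called 3873 of 14628 in either direction, a far larger share than the fit of all 10 libraries. The comparison of Lipo with WT shares its WT libraries with that of KO and its Lipo libraries with that of OE.

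**Figure D4:**
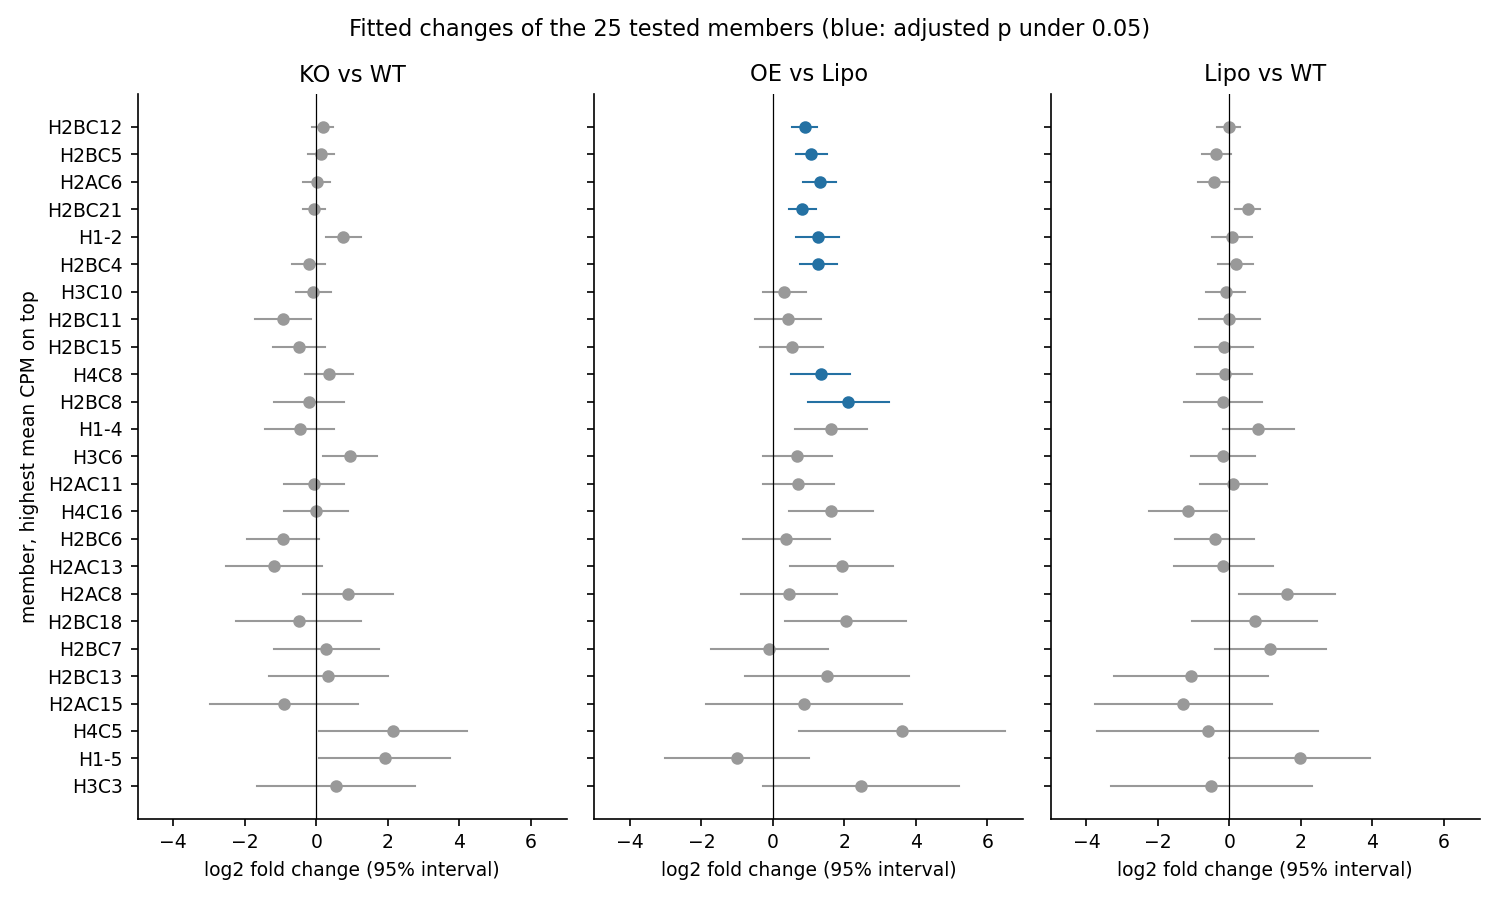
Fitted log2 fold change (horizontal axis) with 95% interval of each of the 25 tested members (rows, highest mean CPM on top) for KO over WT, OE over Lipo and Lipo over WT. Blue marks an adjusted p under 0.05, reached by 8 members in OE over Lipo and by none in the other 2 panels.

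The change in KO over WT was also tested against the change in OE over Lipo, within the same fit. It was the lower of the pair for 6 members and the higher for none, where 9.47% of all genes tested were called lower. The 6 were H2AC6 (-1.30 on the log2 scale, adjusted p = 0.00888), H2BC4 (-1.49, adjusted p = 0.0098), H2BC21 (-0.89, adjusted p = 0.0258), H2BC5 (-0.94, adjusted p = 0.0384), H2AC13 (-3.11, adjusted p = 0.0447) and H2BC12 (-0.71, adjusted p = 0.0485), by edgeR. Of these, KO over WT alone was 0.01 for H2AC6, -0.22 for H2BC4, -0.07 for H2BC21, 0.14 for H2BC5, -1.18 for H2AC13 and 0.18 for H2BC12 on the log2 scale, none of them called. Without OE 1 or OE 2 the test called 2 members, and without Lipo 2 or Lipo 3 it called 1.

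Replication-independent histone genes encode variants that are made outside S phase as well. Of 11 tested, 1 rose and 1 fell in OE, with a median log2 change of -0.15. In KO, 1 rose and 1 fell as well, with a median of -0.03. Over all genes tested, 6.79% were called higher and 5.53% lower in OE, and 12.6% in either direction in KO. H2AZ2, an H2A.Z variant placed at promoters, fell to 61.7 ± 0.408 CPM in OE, against 102 ± 0.901 CPM in Lipo (adjusted p = 0.00221). H3-3A, which encodes the replacement histone H3.3, rose to 57.8 ± 13.7 CPM in KO, against 34.7 ± 1.21 CPM in WT (adjusted p = 0.00556).

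Of 16 tested genes for processing histone mRNA 1 rose in OE and none fell, with a median log2 change in OE of 0.07 and none called in KO. The share that rose was near that over all genes tested, of which 6.79% were called higher in OE. The gene that rose was ZNF473, the zinc finger protein of the U7 particle, at 26.3 ± 1.84 CPM in OE and 16.5 ± 0.854 CPM in Lipo (SD, n = 2 each; adjusted p = 0.0171). SLBP, which lies outside the naming rule and was chosen after its values were seen, had 107 and 87.3 CPM in OE against 96.3 and 88.9 CPM in Lipo, which overlapped. In KO it had 143, 117 and 119 CPM, against 120, 93.3 and 91.5 CPM in WT, also overlapping (adjusted p = 0.155). Of 9 tested genes of histone gene transcription, which include NPAT and the cyclin E genes that drive it, CCNE1 rose in OE, at 20.7 ± 1.20 CPM against 12.3 ± 0.686 CPM in Lipo (adjusted p = 0.0126). CCNE2 rose in KO, at 48.4 ± 12.9 CPM against 27.4 ± 6.84 CPM in WT (adjusted p = 0.0142). These were the only calls among the 9 in the fit of KO over WT and OE over Lipo, where 12.6% of all genes tested were called in either direction in KO and 6.79% higher in OE.

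Of 21 tested histone chaperones, which carry histones to and from DNA, SUPT6H rose and ANP32E fell in OE, with a median log2 change of -0.21 for the list, where 6.79% of all genes tested were called higher and 5.53% lower, so neither count stood above the background. SUPT6H averaged 646 ± 11.1 CPM in OE and 473 ± 5.69 CPM in Lipo, and ANP32E 67.0 ± 0.536 CPM and 95.3 ± 1.06 CPM in the same order. UBN1, of the HIRA complex that deposits H3.3, fell in KO to 48.3 ± 7.90 CPM, against 70.1 ± 7.51 CPM in WT, the only chaperone called there, where 12.6% of all genes tested were called. ZNF473, CCNE1, SUPT6H and ANP32E lost their OE call when any of the OE or Lipo libraries was left out, and CCNE2 and UBN1 their KO call without WT 2 or without WT 3.

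Of 20 mitotic genes 8 fell in OE and none rose, with a median log2 change of -0.51, where 5.53% of all genes tested were called lower. TOP2A, the topoisomerase that untangles replicated chromosomes, averaged 328 ± 0.367 CPM in OE and 581 ± 22.9 CPM in Lipo. The kinetochore genes BUB1B, CENPF and BUB1 fell as well, by 0.83, 0.79 and 0.86 on the log2 scale. Leaving out OE 1 left 2 of these calls, OE 2 left 4, Lipo 2 left 6 and Lipo 3 left 5, while 14 were made without WT 1 and 13 without KO 3. In KO, CCNB1 and KIF20A rose and no mitotic gene fell, where 812 of all 15832 genes tested were called higher and 1180 lower. No rise was called without WT 2 or without WT 3, and 4 were without WT 1.

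Of 31 tested genes of DNA replication and S phase, 3 fell and 1 rose in OE, with a median log2 change of -0.21, where 5.53% of all genes tested were called lower and 6.79% higher, so the share called was near the background. Among those that fell was RRM1, the large subunit of ribonucleotide reductase, at 56.3 ± 4.30 CPM in OE and 83.2 ± 5.21 CPM in Lipo (SD, n = 2 each; adjusted p = 0.0160 by edgeR). MCM6, of the replicative helicase, fell too, and GINS3 rose. No S phase gene was called lower without OE 1 or without Lipo 3, and 1 was without OE 2 or without Lipo 2. In KO 3 rose, among them GINS2, and 2 fell, TYMS and MCM4, with 1 rise called without WT 2 or without WT 3 and 5 without KO 1. Over all genes tested 12.6% were called in KO in either direction. Whether a shift in cell-cycle position has a part in the histone result was not tested.

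Other measures also differed between the libraries compared. Mitochondrially encoded genes took 4.74% to 4.89% of reads in OE against 8.04% to 8.72% in Lipo, and 5.44% to 7.25% in KO against 5.47% to 6.15% in WT. Mitochondrially encoded genes and RNAs lacking a poly(A) tail were also left out of the denominator, which then was a raw total without TMM scaling. On that denominator the summed member level was 1.959 times as high in OE as in Lipo. MALAT1 did not separate OE from Lipo, at 206 and 202 CPM against 223 and 169 CPM. Of 3 tested RNAs lacking a poly(A) tail none was called in OE, RN7SL1 rose in KO (10.8 ± 3.66 CPM, against 5.85 ± 1.24 CPM in WT) and MALAT1 was lower in Lipo (196 ± 38.2 CPM, against 1189 ± 584 CPM in WT). The 6 lung lineage markers summed to 3484 to 3526 CPM in OE against 4443 to 4792 CPM in Lipo, with 3 called lower, and to 8059 to 10335 CPM in KO against 8343 to 9877 CPM in WT, with 1 called lower. That gene was SFTPB, a surfactant protein, at 49.5 ± 9.47 CPM in KO and 195 ± 20.4 CPM in WT (SD, n = 3 each; adjusted p = 3.79e-07 by edgeR). The list also differed between the wild-type groups, where Lipo lay below WT without overlap in the sum, with 3 called lower and 1 higher. Of 7 epithelial markers KRT7 rose in OE, and KRT7 and CDH1 fell in KO. Of 6 fibroblast markers, COL1A1 and LUM rose in OE and fell in KO, and the list summed to 343 to 351 CPM in OE against 170 to 183 CPM in Lipo, and to 70.9 to 77.7 CPM in KO against 177 to 289 CPM in WT. The defining fibroblast markers DCN and PDGFRB had no reads, and COL1A2 and COL3A1 had 5 and 11 reads over all libraries. Of 5 leukocyte markers 1 passed the low-count filter, and none was called. None of the 4 endothelial markers was called. The part of these measures in the histone result was not tested.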

How the data were processed

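Raw read counts per gene were deposited by the authors, without normalization. Per the submitters' processing notes, HISAT2 2.1.0, FastQC, featureCounts, edgeR and GRCh38 were named, with no role or order. Of 62710 entries 1 held no values and was left out, and 2 columns matching no sample were not used. Groups followed the titles. Counts were fitted with edgeR 4.0.16 in R 4.3.3: filterByExpr, TMM scaling and a robust quasi-likelihood test on all 10 libraries (6 residual degrees of freedom), two-sided, with Benjamini-Hochberg adjustment over the 15832 genes tested and a threshold of 0.05. CPM uses TMM-adjusted totals, and counts limit its precision through counting error. The fit was tested on simulated data. The members and lists were chosen with earlier results of these data known. Values per library are given for the 2 most abundant members of each class and for up to 5 members called per direction in each comparison; the remaining called members were added. For other lists up to 4 called genes with the smallest p are named. Alternatives included DESeq2 1.42.0, other scalings and filters, other controls and leaving out libraries. Stem-loops and exon lengths came from GENCODE 29 and promoters from RefSeq. Some listed genes are not reported here.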

Additional observations from a re-analysis of the deposited data

How the results depend on the processing

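Of 243 comparison values recomputed over 25 alternatives, 205 stayed close to the main value. No value of a single member reversed, among members called in any fit of a comparison. Members never called were not checked in this way. The members' median in KO and the summed Lipo over WT ratio changed direction in some alternatives. H1-2 made 1 call higher in KO with DESeq2, with no filter on low counts, against the 5 libraries labelled wild type, and without the WT and KO libraries numbered 1, an alternative added after the data had been seen, which also gave a KO median of 0.11. The members' median log2 change in OE was 0.96 without the filter, 0.99 with a stricter filter (1 CPM in 3 libraries, 100 reads in all), 0.87 against those 5 and 0.95 against WT, and 12 members were called in OE with either of the last controls. Over all 15832 genes tested, 1399 were called higher in OE against those 5 and 1954 against WT. The members' median for KO effect minus OE effect was -1.07 without the filter and -0.96 with the stricter one. That comparison needs all 4 groups, so it has no fit of only the groups compared. The summed OE over Lipo ratio was 1.959 with the other denominator.

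Replicate numbers were not treated as pairs in the main fit. Same-numbered KO and WT libraries had correlated deviations of 0.33, 0.06 and 0.18, and Lipo and WT of -0.04. Differently numbered KO and WT libraries ran from -0.24 to 0.09. Each KO library correlated most with the WT library of its own number, so variation shared by number is possible there. With the replicate number as a block, KO gave 1 call higher (H1-2) and 1 lower (H2BC11). Over all 14648 genes tested, that fit called 1584 higher and 1784 lower, against 485 and 731 in the fit of these groups without the block. For Lipo over WT, libraries 2 and 3 gave 1 call higher (H2BC21) with the block and 1 without it, the unblocked fit being added after the data had been seen. Over all 14628 genes tested, 3695 were called with the block and 3873 without it, in either direction. No paired analysis of OE over Lipo was possible because these groups share only 1 number.

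Leaving out 1 library at a time, calls ran from 0 to 1 higher and from 0 to 1 lower in KO, from 2 to 9 higher in OE, and from 1 to 6 lower for KO effect minus OE effect. The medians ran from -0.12 to 0.053 in KO, 0.98 to 1.17 in OE, -0.15 to -0.012 for Lipo over WT and -1.34 to -0.92 for KO effect minus OE effect. Of the single members, H2AC6 kept its OE call in 19 of 19 alternatives, H2BC4 and H2BC12 in 17, H2BC5 in 16, H1-2, H2BC8 and H2BC21 in 15 and H4C8 in 8. Depth limits the 8 members with fewer than 100 reads in all.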
